A study of Mus musculus with 9 samples.

Results

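The transcriptome of resting J774A.1 cells, a macrophage-like line established from a tumour of a female BALB/c mouse, is described here from 3 unstimulated control libraries. Genes were counted as present when the deposited table gave them at least 1 TPM in all 3 libraries. This held for 12375 of the 26157 genes in the table (47.3%), with a median over these genes of 23 TPM. TPM, the usual unit of relative transcript abundance, divides a gene's reads by its length and scales each library to the same total, so that levels can be compared between genes as well as between libraries.

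The series holds 9 libraries of J774A.1 cells in 3 groups of 3. The control group, labelled Ctrl, was kept in normal culture with no added cytokine. The other groups received IL-4 and IL-13, each at 10 ng/mL, either alone (M2) or together with Q11, a compound whose stated target is CYP2E1, an oxidising enzyme of the cytochrome P450 family (Q11). Only the controls were used, and no groups were compared. J774A.1 is a single transformed, proliferating line, so what follows describes that line in culture and not a primary macrophage of any tissue. The labels give no culture, passage or date for the individual libraries, and the spread between the 3 may therefore be technical.

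Macrophages are phagocytes that survive on colony-stimulating factor signals, take up particles, lipids and dying cells through surface receptors, and degrade them in lysosomes rich in cathepsins. They sense microbes through Toll-like receptors and cytosolic sensors, and answer with cytokines and chemokines, many of which are transcribed only after stimulation. Their identity is set by a small group of transcription factors around PU.1 (Spi1), the C/EBP family and the large MAF proteins.

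The control libraries held 16453183 to 17051972 reads assigned to genes, a total recovered from the TPM values and exon lengths. At this depth 1 TPM of a gene with 1 kb of exon was worth 4.85 to 5.06 reads, and a count of 0 reads allowed up to 0.619 TPM for such a gene, counting error only. In the text a gene "listed at 0" is followed where useful by this limit for its own length. Between library pairs, Pearson's r of log2(TPM + 1) across genes was 0.991 to 0.992, with genes not being independent replicates. A chi-square per degree of freedom of 2.36 to 3.14 per pair, computed from the recovered reads and given as a description, was above the value of 1 that read sampling alone gives, and all 3 libraries were kept as separate.

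The markers given for this line were high and even. Lyz2, the macrophage lysozyme, stood at 6698, 7139.9 and 6739.7 TPM in replicates 1, 2 and 3. Spp1, the secreted phosphoprotein osteopontin, stood at 6741, 7071 and 6719 TPM. They were the 7th and 8th highest genes of the whole table, with means of 6859 ± 244 and 6844 ± 197 TPM (SD, n = 3, as in all values written with ±). Cd14, the co-receptor for lipopolysaccharide, had 1497, 1539 and 1545 TPM and Csf1r, the receptor for CSF1, had 383, 357 and 385 TPM. Those levels gave ranks 69 and 387, well above the median gene present. All 4 markers were measured at a similar level in each library.

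The promoter sequences of 4 of the highest myeloid genes are shown because they carry different short motifs near the start site. Each is the 250 bases upstream of the gene's start in RefSeq on GRCm38.p6, written 5′ to 3′ on the strand of the gene. Capitals mark exact matches on either strand. GGAAGT and the overlapping motif GAGGAA are letters found in binding sites of ETS factors such as PU.1. TATAAA is the TATA box and CCAAT the CCAAT box, while TGACTCA is bound by AP-1 factors. CACGTG is an E-box and GGGCGG a GC box. Lyz2 lies at chr10:117282273-117282522 on the minus strand and was marked for GGAAGT. Spp1 lies at chr5:104434861-104435110 on the plus strand and was marked for both ETS motifs, the TATA box and the CCAAT box. Cd68, a lysosomal membrane glycoprotein used as a macrophage marker, lies at chr11:69666171-69666420 on the minus strand and was marked for GAGGAA, the AP-1 motif, the CCAAT box and the GC box. Ctsd, the aspartic protease cathepsin D, lies at chr7:142387828-142388077 on the minus strand and was marked for the E-box and the GC box.
Lyz2: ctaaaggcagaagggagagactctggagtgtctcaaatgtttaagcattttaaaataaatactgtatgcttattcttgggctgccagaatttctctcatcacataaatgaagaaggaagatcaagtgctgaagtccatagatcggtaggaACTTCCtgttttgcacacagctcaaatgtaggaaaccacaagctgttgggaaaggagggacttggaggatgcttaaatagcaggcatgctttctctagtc
Spp1: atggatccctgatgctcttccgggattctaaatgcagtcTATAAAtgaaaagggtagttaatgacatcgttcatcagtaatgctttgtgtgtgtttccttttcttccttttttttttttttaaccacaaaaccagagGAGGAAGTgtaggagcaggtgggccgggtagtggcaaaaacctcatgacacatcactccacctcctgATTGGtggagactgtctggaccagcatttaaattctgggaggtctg
Cd68: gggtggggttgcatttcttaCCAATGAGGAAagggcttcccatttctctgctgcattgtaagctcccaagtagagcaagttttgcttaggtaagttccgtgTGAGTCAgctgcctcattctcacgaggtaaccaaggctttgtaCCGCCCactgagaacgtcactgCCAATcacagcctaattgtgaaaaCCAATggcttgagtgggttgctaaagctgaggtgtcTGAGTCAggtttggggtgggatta
Ctsd: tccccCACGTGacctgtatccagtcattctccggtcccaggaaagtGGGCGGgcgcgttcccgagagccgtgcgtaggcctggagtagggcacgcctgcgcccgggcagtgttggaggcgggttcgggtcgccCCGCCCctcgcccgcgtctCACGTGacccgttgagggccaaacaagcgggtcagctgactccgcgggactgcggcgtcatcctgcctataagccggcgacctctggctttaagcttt
In Spp1 the matches to both ETS motifs overlap, with first bases 113 and 111 bases upstream of the start. The TATAAA match of Spp1 has its first base farther off, at -211 from the start. In Lyz2 a single GGAAGT match lies on the opposite strand. Ctsd holds 2 matches to the E-box and 2 to the GC box. A match is a run of letters and was not tested as a bound site.

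Of 24 lineage and identity genes, 21 were present, beside 67.6% of all protein-coding genes in the table. Those 21 had a median of 794 TPM against 23 TPM over all genes present. The list was written with earlier results of these data known. Lgals3, a galectin of phagocytes, had 2584, 2663 and 2614 TPM and Cd68 had 2545, 2525 and 2591 TPM. Tyrobp, the signalling adaptor DAP12, averaged 1449 ± 65.6 TPM, and Fcer1g, the shared Fc receptor chain, 1257 ± 23.3 TPM. Adgre1, which encodes the F4/80 antigen, was far lower at 12.8, 12.1 and 12.5 TPM. Itgam, the CD11b integrin chain, had 124, 113 and 128 TPM, but 68.7% of its exon bases overlap another annotated gene and its value is uncertain. The 3 identity genes not present were Cx3cr1, the fractalkine receptor (0.458, 0.570 and 0.909 TPM), Cd200r1 (0, 0.118 and 0 TPM) and Emr4 (0, 0 and 0.0587 TPM). The list thus ran from the highest genes of the table to genes at 1 read or none per library.

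The most abundant transcripts beyond those markers served respiration, translation, iron storage, the cytoskeleton and the lysosome. The highest gene was mt-Co1, a mitochondrially encoded subunit of cytochrome c oxidase, at 18620.4, 17979 and 18063 TPM. Eef1a1, the translation elongation factor, averaged 9417 ± 192 TPM, and Actb, cytoplasmic actin, 5773 ± 135 TPM. Ferritin light chain, Ftl1, averaged 7215 ± 182 TPM, although 44.7% of its 100-base exon windows also occur elsewhere in the annotated transcripts. The cathepsins Ctsz (4789 ± 88.1 TPM) and Ctsd (4732 ± 129 TPM) came next among nuclear protein-coding genes after the ribosomal protein gene Rplp1 (5288 ± 118 TPM). Lgals1 (4285), Fth1 (3473), Tmsb4x (3376), Ifitm3 (3298), Gpnmb (3062), Pkm (2989) and Ctsb (2988 TPM on average) were also among the 30 highest. These genes encode a galectin, ferritin heavy chain, thymosin beta, an antiviral membrane protein, a lysosomal glycoprotein, pyruvate kinase and a further cathepsin.

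The 10 highest genes took 9.36%, 9.30% and 9.23% of all TPM in replicates 1, 2 and 3, a mean of 9.30% ± 0.0679. The 30 highest took 16.2%, the 100 highest 27.9% and the 1000 highest 61.1%. Put the other way, 507 genes held 50% of the TPM. The 282 genes of at least 500 TPM made up 2.28% of the genes present and 41.4% of TPM, whereas the 2257 genes from 1 to 5 TPM made up 18.2% of the genes and 0.642% of TPM. Among the genes present, 10530 (85.1%) are protein-coding in GENCODE M21 and held 94.2% of TPM. Long noncoding RNAs numbered 935, with Malat1 (599 ± 74.0 TPM) and Xist (268 ± 10.8 TPM) the highest of the list examined. Xist, which coats the inactive X chromosome of female cells, had 279.9, 259 and 264 TPM.

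**Figure D1:**
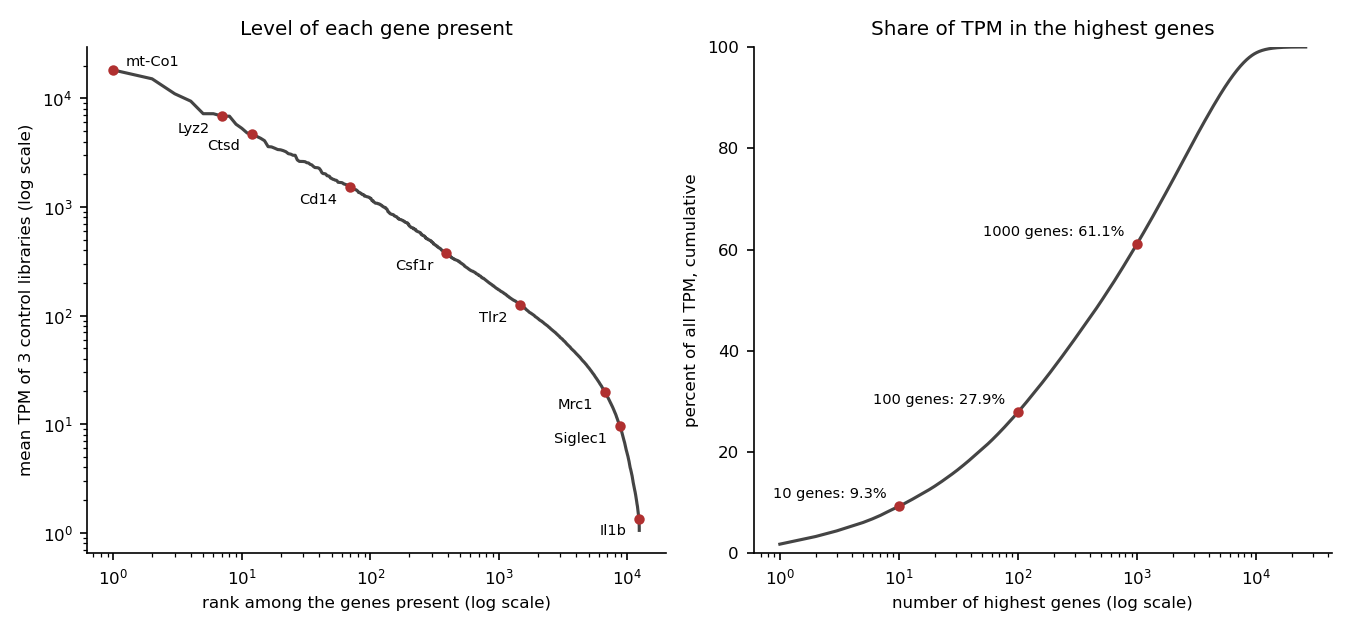
Mean TPM of the genes present in rank order, on log axes, with named genes marked, beside the cumulative share of all TPM against the number of highest genes. Lyz2 stands at rank 7 and Csf1r at rank 387, and the 1000 highest genes take 61.1% of TPM.

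Some high values cannot be assigned to a single gene. Of the 30 highest genes, 3 are processed pseudogenes and 9 share over 25% of their 100-base windows with other transcripts, among them mt-Co1 (30.8%) and Ctsd (30.2%). Of 666 pseudogenes present with a measured window share, 262 (39.3%) share over 50% of their windows, against 152 (1.45%) of the protein-coding genes present. Mitochondrially encoded genes show the same limit. The 8 with at most 90% shared windows ran from 43.1 TPM to the 18221 TPM of mt-Co1. The 5 with more, mt-Co2 (206), mt-Atp6 (174), mt-Co3 (122), mt-Nd4l (65.9) and mt-Nd3 (16.4 TPM), ran from 16.4 to 206 TPM, and 6 nuclear pseudogene copies on chromosome 1 had 40.6 to 185 TPM. The levels of those 5 genes are therefore uncertain, and the 6.30% to 6.52% of TPM held by the 13 mitochondrially encoded protein genes is the sum as listed.

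Receptors were the largest class examined. Of 403 receptor-list genes in the table, 258 were present, 120 had some reads but missed 1 TPM in at least 1 library, and 25 were listed at 0 in all 3. Over all protein-coding genes in the table, 10530 of 15587 (67.6%) were present. That share is the background for the list counts here and below. Of 12 Toll-like receptor genes on the list, 10 had a row in the table and those 10 were present. Tlr11 and Tlr12 had no row and were not analysed here. Tlr13, an endosomal sensor of bacterial ribosomal RNA, was the highest at 162, 166 and 159.9 TPM. Tlr2, which binds bacterial lipopeptides, had 126, 129 and 122 TPM and Tlr7, a sensor of single-stranded RNA, 119, 125 and 121 TPM, so that those 2 overlapped and their order is within the spread. Tlr4, the lipopolysaccharide receptor, had 57.0, 56.2 and 52.8 TPM and the DNA sensor Tlr9 49.0, 45.7 and 51.3 TPM, which did not overlap. The order then went on with Tlr8 (44.0), Tlr3 (14.5), Tlr6 (10.7), Tlr1 (8.96) and Tlr5 (6.78 TPM, the flagellin receptor). Around them, Unc93b1, which carries nucleic acid-sensing receptors to endosomes, averaged 329.6 ± 11.2 TPM, the adaptor Myd88 114 ± 5.36 TPM and the Tlr4 partner Ly96 31.0 ± 3.41 TPM. Lbp, the serum protein that delivers lipopolysaccharide, had 0, 0 and 0.0424 TPM, a single low value.

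**Figure D2:**
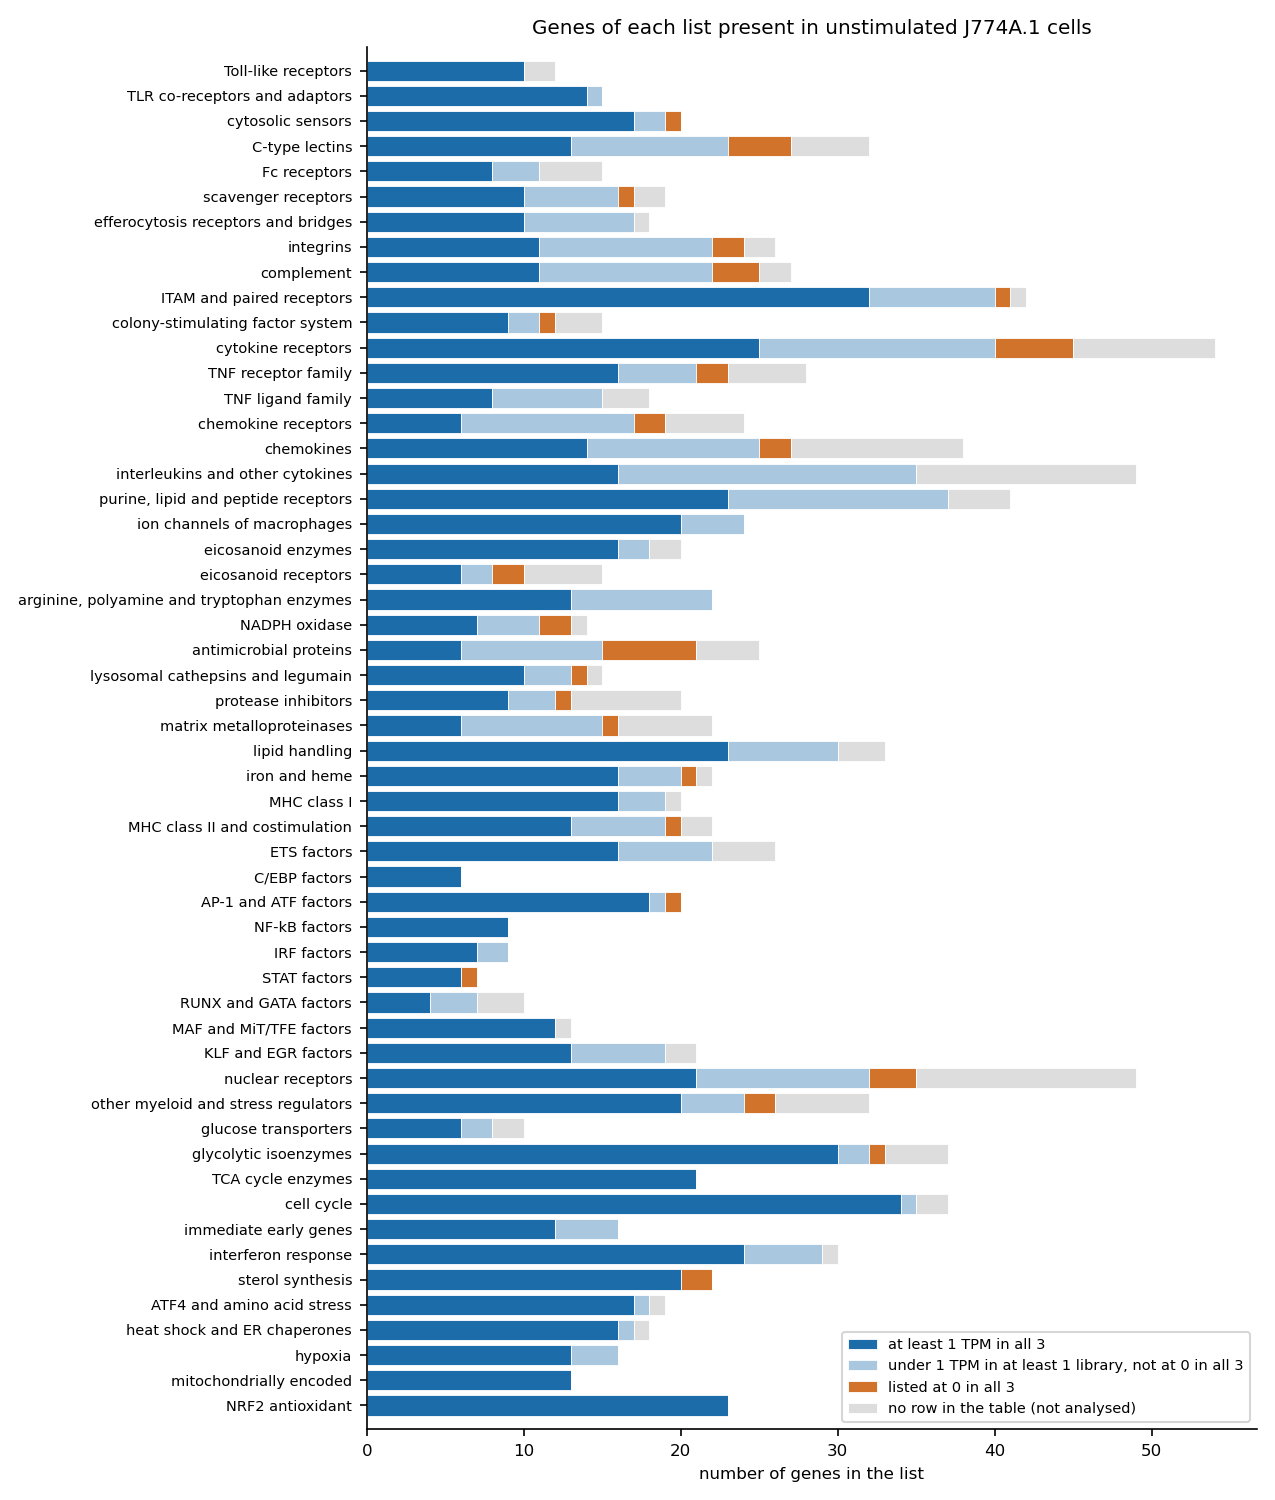
Number of genes of each list that were present, under 1 TPM in at least 1 library, listed at 0 in all 3, or without a row in the table, as stacked bars, 1 bar for each receptor, cytokine, enzyme, transcription factor and program list. All 21 TCA cycle genes are present, against 6 of 24 chemokine receptors.

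Cytosolic sensing was represented by 17 of 20 genes. The pore-forming protein Gsdmd averaged 161 ± 4.26 TPM, the inflammasome sensors Nlrp3 and Aim2 106 ± 3.15 and 83.2 ± 2.66 TPM, and Casp1, which processes IL-1β, 86.7 ± 4.73 TPM. Pycard, the ASC adaptor that links those sensors to caspase-1, was lower but measured in every library, at 20.2, 20.3 and 19.5 TPM. The DNA-sensing pair Mb21d1 (cGAS) and Tmem173 (STING) averaged 54.9 ± 0.532 and 75.5 ± 3.03 TPM. Mefv, which encodes pyrin, had 0, 0 and 0.252 TPM, and Nlrp6 was listed at 0 (limit 0.120 TPM).

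C-type lectins were uneven, with 13 of 27 in the table present. Clec4d and Clec4e, which recognise mycobacterial glycolipids, had 331, 351 and 329.9 and 213, 213 and 197 TPM. Clec5a averaged 149 ± 5.80 TPM and the galactose-binding lectins Mgl2 and Clec10a 132 ± 1.93 and 75.0 ± 2.28 TPM. Mrc1, the mannose receptor, had 19.4, 19.1 and 20.4 TPM and Clec7a, the β-glucan receptor dectin-1, 7.97, 9.52 and 8.62 TPM. Clec4g, Clec1b, Cd209d and Cd209e were listed at 0 in all 3 libraries. Mrc1 and the galactose-type lectins are often used as markers of IL-4-treated macrophages, and they were present here without added IL-4.

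All 4 Fcgr receptors for immunoglobulin G on the list were present. Fcgr3, a low-affinity activating receptor, had 349.7, 328 and 347 TPM and Fcgr4 207, 208 and 224 TPM. The inhibitory Fcgr2b averaged 157 ± 1.91 TPM, the high-affinity Fcgr1 62.1 ± 3.68 TPM and the neonatal receptor Fcgrt 53.8 ± 1.85 TPM. Fcer2a, the low-affinity IgE receptor (0.200, 0 and 0 TPM), and Fcrla, a protein of B cells (0.591, 0.113 and 0.352 TPM), stayed under 1 TPM.

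Receptors for modified lipids and for dying cells included very high and unmeasured members of the same families. Lrp1, a large endocytic receptor, had 429, 398 and 477 TPM and Msr1, the class A scavenger receptor, 332, 321 and 318 TPM. Colec12 (172 ± 3.64 TPM), Scarb1 (71.3 ± 2.41 TPM) and Marco (18.7 ± 1.33 TPM) were present, in that order. Cd36, a receptor for oxidised lipoprotein and fatty acids, was listed at 0 in all 3, which allows up to 0.170 TPM for its length. Among the TAM receptor kinases that recognise apoptotic cells, Mertk had 51.5, 48.0 and 49.8 TPM, against 0, 0.0785 and 0 TPM for Axl and 0.266, 0.128 and 0.165 TPM for Tyro3. Gas6, a ligand of these kinases, had 0.809, 1.40 and 0.723 TPM, and Pros1, the other bridging ligand, 0.0504, 0.0967 and 0 TPM. Mertk was thus the single TAM receptor past 1 TPM in any control library.

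Of 25 complement genes in the table, 11 were present, with a median of 173 TPM over those present. Of 41 ITAM and paired receptor genes, 32 were present, with a median of 19.5 TPM. Properdin, Cfp, which stabilises the alternative pathway convertase, averaged 894 ± 22.2 TPM. The anaphylatoxin receptors C5ar1 and C3ar1 had 576, 589.8 and 644 and 586, 581 and 597 TPM and overlapped each other. The 3 chains of C1q, which binds antibody complexes and apoptotic cells, stood at 549 ± 11.5 (C1qb), 257 ± 4.13 (C1qc) and 173 ± 5.31 TPM (C1qa). C3 itself averaged 97.3 ± 1.86 TPM. The later components C6 and C7 were listed at 0, with limits of 0.171 and 0.227 TPM. Sirpa, the inhibitory receptor for CD47, averaged 1005 ± 13.9 TPM and Trem2, a lipid-sensing receptor that signals through Tyrobp, 238 ± 7.82 TPM.

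In the colony-stimulating factor system, 9 of 12 genes in the table were present, with a median of 21.3 TPM, near the 23 TPM of all genes present. Csf2ra, the GM-CSF receptor α chain, averaged 179 ± 7.34 TPM and the shared β chain Csf2rb 57.9 ± 3.72 TPM. Flt3, a receptor of dendritic cell progenitors, was listed at 0 (limit 0.0985 TPM). Of the 2 ligands of Csf1r, Csf1 had 9.25, 8.98 and 7.95 TPM and Il34 0, 0 and 0.314 TPM. Among 45 cytokine receptor genes in the table, 25 were present, with a median of 20.6 TPM, led by Tgfbr2 (106), Il10ra (74.8) and Ifngr2 (66.4 TPM). The receptor chains for the cytokines used elsewhere in the series were measured in resting cells. Il13ra1 had 28.8, 27.3 and 30.7 TPM and Il4ra had 16.8, 15.2 and 15.9 TPM, while the decoy receptor Il13ra2 had 0.271, 0.173 and 0 TPM. Il1r1, the signalling receptor for IL-1, had 0.0648, 0 and 0.0322 TPM. Both TNF receptors were present, Tnfrsf1a at 237 ± 5.87 and Tnfrsf1b at 193 ± 7.73 TPM.

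Of 19 chemokine receptor genes in the table, 6 were present, beside 67.6% of all protein-coding genes in the table. Cxcr4, the receptor for CXCL12, led with 79.7, 92.9 and 79.5 TPM, followed by Cxcr3 at 27.3, 30.1 and 25.3 TPM. Ccr2, which draws monocytes towards CCL2, had 5.15, 5.32 and 5.57 TPM. Ccr1, a receptor for CCL3, had 0.291, 0.0698 and 0.361 TPM. Among adhesion receptors, the integrin β chains Itgb1 (594 ± 21.6 TPM) and Itgb2 (497 ± 4.62 TPM) exceeded every α chain, of which Itga5 was the highest at 208 ± 1.76 TPM. Itgax, the CD11c chain, had 4.59, 4.77 and 5.88 TPM. Gpr84, a receptor for medium-chain fatty acids, averaged 263 ± 3.77 TPM, S1pr1 178 ± 4.80 TPM and the UDP receptor P2ry6 125 ± 3.43 TPM. The ATP-gated channels P2rx7 and P2rx4 were close, at 32.8, 34.8 and 39.2 and 32.2, 34.3 and 34.4 TPM.

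Of 77 cytokine and chemokine genes in the table, 38 were present. The chemokines among them ranged from over 1000 TPM to values listed at 0. Ccl3, a ligand of CCR1, had 1431, 1343 and 1411 TPM and Ccl4, its close relative, 756, 831 and 721 TPM. Ccl9 averaged 1063 ± 18.7, the monocyte attractant Ccl2 822 ± 9.15 and Pf4, also known from platelets, 625 ± 31.4 TPM. Cxcl2 (35.0 ± 4.79), Ccl5 (7.40 ± 0.711) and the interferon-induced Cxcl10 (3.67 ± 0.819 TPM) were lower. Ccl17 and Ccl22, chemokines linked to IL-4 responses, had 0, 0.385 and 0.398 and 0.0887, 0.850 and 0.352 TPM, and Ccl1 and Cxcl5 were listed at 0. Ccl3 was thus abundant in the same libraries in which its receptor Ccr1 stayed under 1 TPM.

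**Figure D3:**
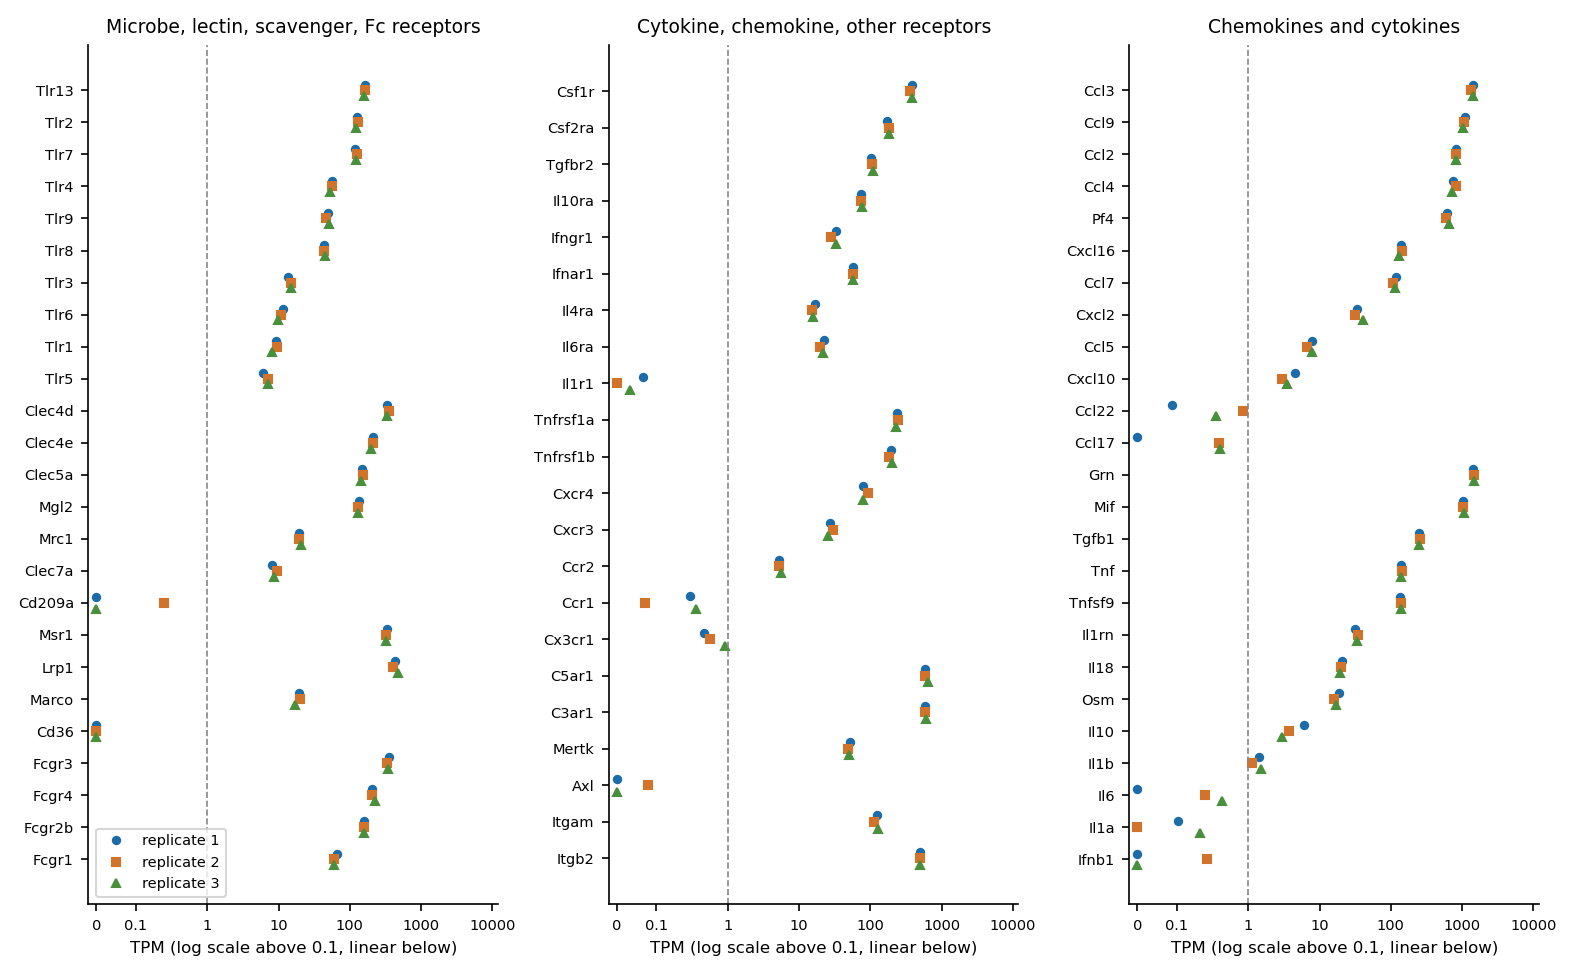
TPM in each of the 3 control libraries for receptor genes and for ligand genes, with a dashed line at 1 TPM and an axis that is logarithmic above 0.1 and linear below it. Ccl3 averages 1395 TPM, while Cd36 lies at 0 and Il6 under 1 TPM.

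Inflammatory cytokines did not share a level. Tnf had 140.3, 143 and 140.1 TPM, the highest of the TNF ligand list, and Tnfsf9 (4-1BBL) averaged 138 ± 1.76 TPM. Il1b had 1.41, 1.14 and 1.50 TPM, just past the threshold, and Il1a 0.104, 0 and 0.207 TPM. Il6 had 0, 0.244 and 0.422 TPM, Ifnb1 0, 0.264 and 0 TPM and Il12a 0.121, 0 and 0 TPM. Il10, the anti-inflammatory cytokine, had 6.14, 3.77 and 2.97 TPM, with replicate 1 above the other libraries. The IL-1 receptor antagonist gene Il1rn averaged 33.2 ± 1.76 TPM. Other factors stood far higher, with progranulin (Grn) at 1445 ± 13.9, Mif at 1043 ± 26.5 and Tgfb1 at 251 ± 5.34 TPM. In these libraries Tnf was therefore the only one of Tnf, Il1a, Il1b, Il6 and Il12a above 2 TPM.

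Enzymes and effectors were present for 161 of 227 genes in the table, with a median of 110.1 TPM over those present. The share present over all protein-coding genes in the table was 67.6%. In eicosanoid synthesis, Alox5ap, the helper protein of 5-lipoxygenase, had 182, 190.4 and 193 TPM and Alox5 itself 17.6, 20.5 and 20.8 TPM. Ptgs1, the constitutive cyclooxygenase, had 143, 139 and 145 TPM against 11.9, 12.8 and 13.8 TPM for the inducible Ptgs2, and made up 91.7% of their summed TPM. The prostacyclin receptor Ptgir averaged 137 ± 2.32 TPM. In arginine metabolism, the urea-cycle and polyamine enzymes Ass1 (124 ± 2.93), Asl (48.5 ± 2.20) and Odc1 (179.6 ± 3.75 TPM) were present. The enzymes commonly used to label polarised states were not. Nos2, inducible nitric oxide synthase, had 1.02, 0.802 and 2.68 TPM, Arg1 0.370, 0.444 and 0.0919 TPM and Arg2 0.866, 2.08 and 1.86 TPM. Ido1, which degrades tryptophan, had 0.339, 0 and 0.224 TPM, and the IL-4-associated secreted proteins Chil3 and Retnla were listed at 0, with limits of 0.373 and 1.02 TPM.

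Of 13 genes of the NADPH oxidase list in the table, 7 were present, 4 stayed under 1 TPM in at least 1 library and 2 were listed at 0. Cyba, one of its membrane subunits, had 1462, 1556 and 1477 TPM and Cybb, the catalytic subunit, 77.3, 70.6 and 73.3 TPM. The cytosolic subunits shown averaged 457 ± 21.8 (Ncf4) and 151 ± 5.85 TPM (Ncf1), and the GTPase Rac2 815 ± 12.9 TPM. The oxidases of other tissues Nox4 and Duox2 were listed at 0. Of 21 antimicrobial genes in the table only 6 were present. Slc11a1, a metal transporter of phagosomes, averaged 518 ± 5.97 TPM and Acod1, which makes itaconate, 8.13 ± 1.19 TPM, whereas the neutrophil granule genes Mpo (0, 0 and 0.0598) and Elane (0, 1.00 and 0.208 TPM) missed the threshold in at least 2 libraries.

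Of 14 lysosomal protease genes in the table, 10 were present. Their median coefficient of variation (CV, the SD over the mean of the 3 libraries) was 2.31%, beside 2.29% over all genes of at least 500 TPM. Ctss, which trims the MHC class II invariant chain, had 1995, 2083 and 1997 TPM, Lgmn 591, 597 and 585 TPM and Ctsk, the collagen-degrading cathepsin of osteoclasts, 518, 516 and 494 TPM. Ctsl averaged 325 ± 15.8 TPM. Ctsh had 0.183, 0.220 and 0.137 TPM and Ctsf was listed at 0 (limit 0.121 TPM). Their inhibitor Cst3 averaged 1457 ± 41.9 TPM. Of 16 matrix metalloproteinase genes in the table, 6 were present. Macrophage elastase, Mmp12, had 807, 799 and 823 TPM and gelatinase B, Mmp9, 321, 295 and 386 TPM. The membrane-bound Mmp14 had 0, 0.0663 and 0.0344 TPM. Among their inhibitors Timp2 averaged 573 ± 8.19 TPM and held 99.8% of the TPM of the TIMP genes in the table, while Timp1 had 0.697, 1.34 and 1.84 TPM.

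Of 30 lipid handling genes in the table, 23 were present, with a median of 110.2 TPM over those present. Scd2 had 1777, 1713 and 1795 TPM against 19.3, 21.2 and 21.6 TPM for Scd1, the other fatty acid desaturase of the list, a ratio of 85.1. Fabp5 averaged 661 ± 34.7 TPM and Fabp4 21.4 ± 1.04 TPM, a ratio of 30.9. The lipid droplet protein Plin2 averaged 451 ± 14.8 TPM, 73.3% of the summed TPM of its family and 2.74 times the next member Plin3. Lipoprotein lipase (Lpl) averaged 313 ± 8.49 TPM, and the cholesterol exporters Abcg1 and Abca1 207 ± 3.63 and 142 ± 9.59 TPM. Soat1, which stores cholesterol as esters, averaged 205 ± 4.48 TPM. Apoe, abundant in many tissue macrophages, had 11.1, 8.78 and 8.05 TPM. Of 22 sterol synthesis genes, 20 were present, among them Sqle (262 ± 6.37) and Dhcr7 (96.9 ± 0.707 TPM).

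In iron handling, the transferrin receptor Tfrc had 659, 674 and 611 TPM and heme oxygenase Hmox1 300.2, 294 and 329 TPM. The iron exporter Slc40a1 (ferroportin) had 6.99, 7.34 and 6.44 TPM. The exporter was thus far under both the uptake receptor and the ferritin genes. All 23 genes of the NRF2 antioxidant list were present, although the Nqo1 mean was only 1.43 ± 0.415 TPM.

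Antigen presentation split by class. B2m, the light chain of MHC class I, averaged 1355 ± 76.5 TPM, H2-D1 740.3 ± 14.1 TPM and H2-K1 372 ± 16.5 TPM. The class I heavy chains are similar in sequence, and the division of reads between them is uncertain. Cd74, the class II invariant chain, had 709.8, 686 and 769.9 TPM. The class II chains themselves were near 0, with 0, 0.0520 and 0 TPM for H2-Aa and 0.0803, 0 and 0.159 TPM for H2-Ab1, and H2-Eb1 listed at 0 (limit 0.313 TPM). Ciita, the transactivator of class II genes, had 0, 0.166 and 0.0215 TPM, and the class II loading gene H2-DMa 7.83, 6.54 and 8.43 TPM. Cd74 was thus high in libraries in which the classical class II chains were at or under 0.159 TPM. The costimulatory ligand Cd86 averaged 36.8 ± 1.55 TPM.

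Central carbon metabolism was expressed throughout, with 30 of 33 glycolytic isoenzyme genes in the table and all 21 TCA cycle genes present. Aldoa (2539 ± 83.5), Pgk1 (2179 ± 17.1), Gapdh (1656 ± 8.0) and Ldha (1240.4 ± 56.6 TPM) were, with Pkm and Tpi1 (1589 ± 48.9 TPM), the highest. Ldha held 99.5% of the lactate dehydrogenase TPM, at 223 times Ldhb (5.55 ± 0.642 TPM). Hk3, a hexokinase of myeloid cells, had 249.8, 259 and 256 TPM and exceeded Hk1 (93.5 ± 4.09 TPM) and Hk2 (79.7 ± 5.99 TPM). Glucose transporters did not separate in the same way, since Slc2a1 (245, 226 and 277 TPM) and Slc2a6 (244, 247 and 242 TPM) overlapped. In serine synthesis, Psat1 averaged 336 ± 6.59 TPM and Shmt2, the mitochondrial enzyme that uses serine, 366 ± 2.02 TPM. Phgdh, the enzyme that opens the pathway, had 0, 0 and 0.0824 TPM, with 28% of its windows shared.

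**Figure D4:**
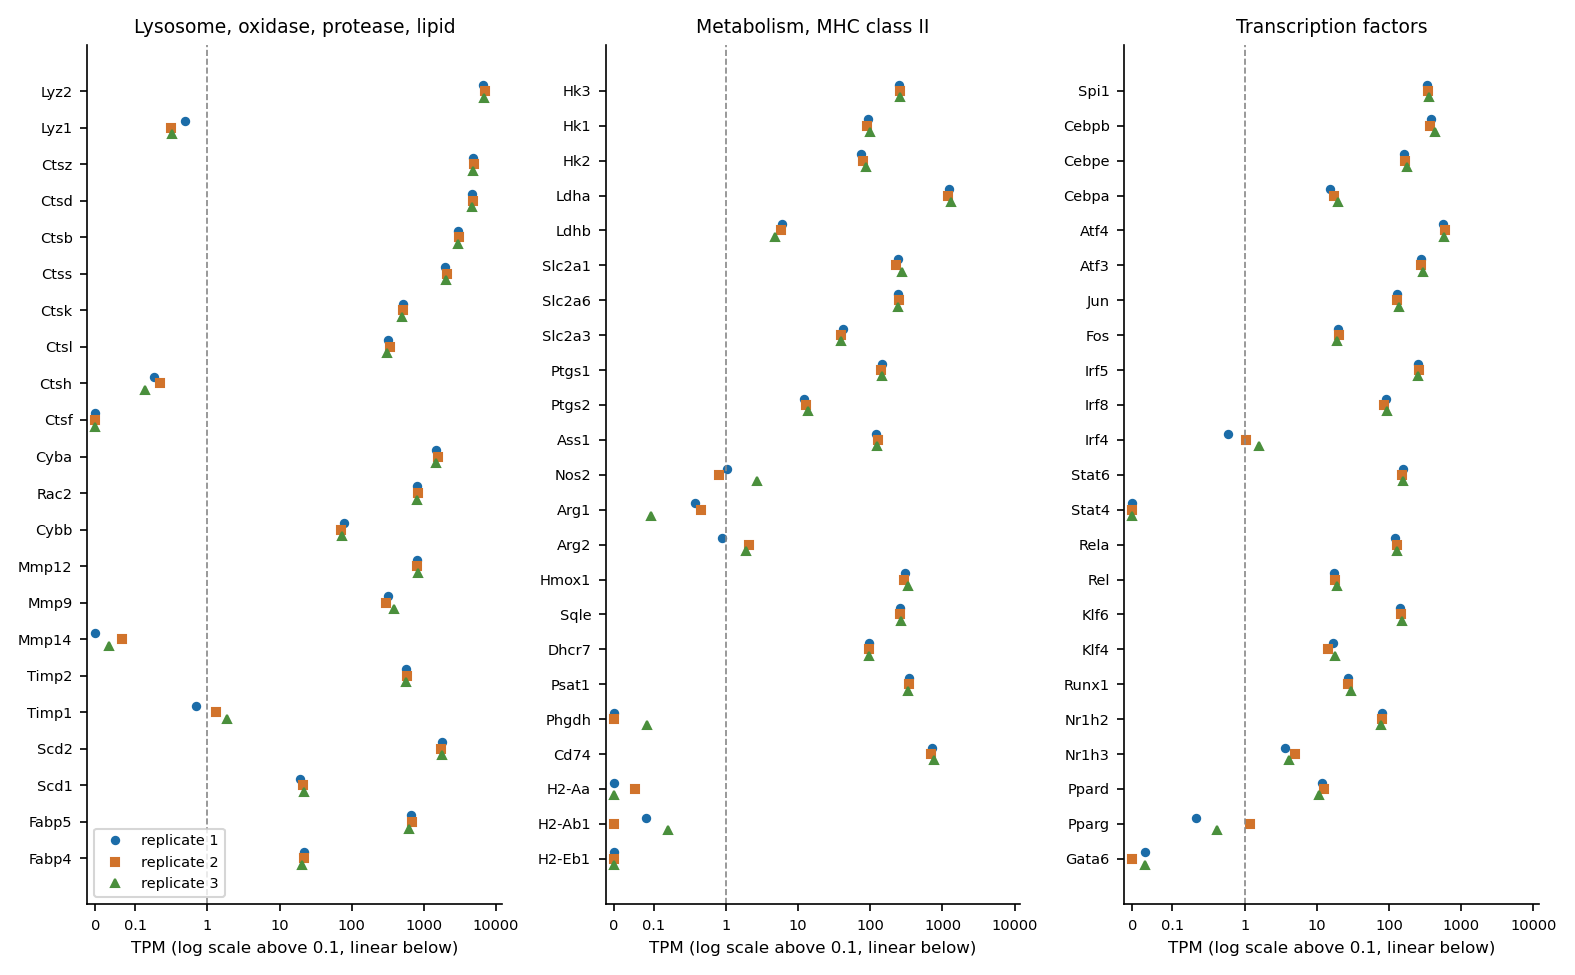
TPM in each of the 3 control libraries for enzyme and effector genes and for transcription factor genes, with a dashed line at 1 TPM and an axis that is logarithmic above 0.1 and linear below it. Cyba averages 1498 TPM while Arg1 lies under 1 TPM, and Spi1 lies between 337 and 354 TPM.

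By the annotation in the deposited table, 853 of 1228 transcription factors (69.5%) were present, beside 10530 of 15587 protein-coding genes (67.6%). Spi1, which encodes PU.1, had 337, 349.9 and 354 TPM, while its relative Spib had 0.0719, 0 and 0.0714 TPM. Maf, a macrophage factor of the large MAF group, had 19.9, 17.7 and 21.1 TPM. Of the C/EBP family, all 6 were present, led by Cebpb at 381, 372 and 434 TPM and by Cebpe, better known from granulocyte maturation, at 162, 167 and 176 TPM. Cebpa averaged 17.5 ± 2.17 TPM. The stress factors Atf4 (583 ± 13.9) and Atf3 (282 ± 9.07 TPM) had the highest means of the 20 genes on the AP-1 and ATF list, which does not hold Atf6b (303 ± 10.3 TPM). On that list Jund (192 ± 13.9 TPM) exceeded Fos (19.8 ± 0.722 TPM). Batf was listed at 0 (limit 0.433 TPM).

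All 9 NF-κB factor and inhibitor genes were present, from Nfkbia (131 ± 6.31 TPM) and Rela (125 ± 4.36 TPM) to Rel (18.0 ± 0.718 TPM). Irf5, a factor of inflammatory gene induction, had 252, 257 and 254 TPM and Irf8, a myeloid lineage factor, 90.6, 84.5 and 93.2 TPM. Irf4, linked to IL-4 responses, had 0.589, 1.05 and 1.59 TPM. Stat6, the transducer of IL-4 and IL-13 signals, had 159, 152 and 155 TPM and was the highest STAT, above Stat3 (32.3 ± 1.34 TPM). Stat4 was listed at 0, with 26.7% of its exon bases overlapping another gene. Among nuclear receptors, the LXR pair was divided 94.9% to Nr1h2 (79.2 ± 1.53 TPM) and the rest to Nr1h3 (4.24 ± 0.726 TPM). Ppard averaged 11.6 ± 0.923 TPM, and Pparg, which alveolar macrophages require, had 0.209, 1.20 and 0.416 TPM. Rxrb (55.4, 60.5 and 56.5 TPM) and Rxra (54.7, 54.2 and 55.1 TPM), partners of these receptors, were close, with a ratio of their means of 1.05. Myb, a progenitor factor, was listed at 0 (limit 0.0681 TPM).

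Of 37 cell cycle genes on the list, 35 had a row in the table and 34 were present, with Pcna at 768, 756 and 733 TPM and Mki67, a marker of proliferating cells, at 348, 331 and 341 TPM. Ccnd1 held 81.8% of D-type cyclin TPM. The cell cycle inhibitor Cdkn1a averaged 147 ± 8.38 TPM, and Cdkn2a and Cdkn2b had no row and were not analysed here. Of 29 interferon response genes in the table, 24 were present but at a median of only 8.05 TPM. Ifitm3 and Bst2 (199.7 ± 7.83 TPM) were high, while Isg15 had 14.1, 11.2 and 15.4 TPM and Mx1 0.109, 0.366 and 0.433 TPM. Of 16 immediate early genes, 12 were present.

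Gene families outside the macrophage lists ranged from complete to nearly unmeasured, counted against the members that GENCODE M21 annotates. Present were 84 of 86 cytoplasmic ribosomal proteins, which held 7.72% of TPM, 77 of 78 mitochondrial ribosomal proteins, 34 of 34 aminoacyl-tRNA synthetases, 47 of 49 proteasome subunits and 45 of 46 NADH dehydrogenase subunits. Solute carriers (195 of 369, 52.8%) and ABC transporters (27 of 50, 54%) lay between these and the families below. For the share over all protein-coding genes, 10530 were present of 15587 in the table, and 6441 more in GENCODE M21 had no row. The solute carrier and ABC transporter counts are not read as departing from it. Of 1093 olfactory receptors 1 was present, of 329 vomeronasal receptors 0 and of 19 Sox genes 0. Members without a row count as not present, and the table holds only genes with a value above 0 in at least 1 of the 9 libraries. Of 99 cytochrome P450 genes, 8 were present, led by the sterol hydroxylase Cyp27a1 (110.1 ± 5.33 TPM). The gene of the stated Q11 target, Cyp2e1, had 0, 0.0916 and 0 TPM, where a count of 0 allows up to 0.282 TPM. The following genes were picked after their values were seen. Wnt6 (84.4, 81.9 and 80.5 TPM) was the single Wnt ligand of 19 present, Fgf11 (29.5, 27.1 and 31.3 TPM) the single fibroblast growth factor of 22, and Hoxb7 (44.7, 47.1 and 42.7 TPM) the highest of 14 Hox genes present out of 39.

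Markers of other cell types were mostly low, with 13 of 72 in the table present. Summed levels were highest for the erythroid and platelet list, 603 to 664 TPM, in which Pf4 was the 1 gene present, and for the neuron and muscle list, 64.8 to 65.4 TPM. They were 33.6 to 43.0 TPM for the neutrophil list, 23.3 to 25.8 TPM for the epithelium and hepatocyte list, 4.87 to 6.22 TPM for endothelium and 3.44 to 3.95 TPM for dendritic cells. The summed level of the mast cell, basophil and eosinophil list ran from 0 to 0.551 TPM over the 3 libraries, of the fibroblast list from 2.47 to 3.37 TPM, of the T and NK cell list from 10.4 to 14.1 TPM and of the B and plasma cell list from 16.9 to 19.6 TPM. Some defining genes were near 0, with Cd3d at 0.227, 0.545 and 0 TPM, Col3a1 at 0, 0.0805 and 0 TPM, Cpa3 listed at 0 and Cdh1 listed at 0. Others were present, with means of 1.87 TPM for Cdh5 of endothelium, 2.77 TPM for Zbtb46 of dendritic cells and 5.08 TPM for Des of muscle. The 2 genes of the neutrophil list that were present had a median of 17.3 TPM. No list had more than 2 members present. Syn1, a synaptic vesicle protein, had 59.1, 58.7 and 60.5 TPM, Afp, a fetal liver protein, 25.8, 25.4 and 23.3 TPM, Ighm, the immunoglobulin μ chain, 13.6, 13.6 and 16 TPM and the T cell kinase Lck 12, 12.3 and 9.51 TPM. In bulk RNA, fewer cells of a type and less RNA per cell cannot be told apart. Among macrophage subset markers 18 of 45 in the table were present. By list, these were 3 of 6 for microglia, 3 of 7 for Kupffer cells, 2 of 6 for alveolar and 1 of 7 for peritoneal macrophages. Present were also 2 of 3 for red pulp macrophages, 5 of 10 for osteoclasts and 2 of 6 for monocytes. Summed mean levels were highest for the osteoclast list (944 TPM) and the red pulp list (315 TPM). Tmem119 of microglia (21.4, 15.2 and 20.1 TPM), Marco and Fabp4 of alveolar macrophages and Icam2 of peritoneal macrophages (17.2, 20.8 and 19.5 TPM) were measured, but Gata6, the peritoneal macrophage factor, had 0.0317, 0 and 0.0315 TPM. No subset list was present in full.

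The 3 libraries were close at all but low levels. Over the 12375 genes present the median CV was 5.52%, with 5th and 95th percentiles of 1.21% and 34.5%. The counting CV, the inverse square root of a gene's mean recovered reads, had a median of 4.40%. The median ratio of measured to counting CV was 1.23. A CV measured on 3 libraries tends to fall below the true one, so this ratio understates the spread beyond counting. By level, the median CV was 18.5% from 1 to 5 TPM, 5.95% from 5 to 50 TPM, 3.10% from 50 to 500 TPM and 2.29% from 500 TPM. Corresponding counting values were 17.9%, 4.80%, 2.31% and 1.01%, so the part beyond counting was most visible at high levels. The highest library exceeded the lowest by over 2-fold for 586 genes (4.74%). Of these, 98 were protein-coding, 0.931% of the protein-coding genes present, while 26.4% of the other genes passed the same limit.

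Among genes averaging 10 TPM or more, the 10 most variable, with CVs from 72.8% to 128%, were small RNAs, pseudogenes or genes with only an identifier or clone name. The 2 with a symbol, the microRNA genes Mir6236 and Mir6960, rested on 2 to 15 recovered reads a library. Among protein-coding genes of that level only 8 of 8176 differed by over 2-fold. The following were chosen after their values were seen. Tnfrsf9, the receptor for Tnfsf9, had 16.9, 12.5 and 31.1 TPM and Bnip3, a mitophagy receptor induced by low oxygen, 14.9, 14 and 28.7 TPM, both highest in replicate 3. The histone gene H4c9 had 9.93, 5.98 and 16.1 TPM, and mt-Co3 223, 63.3 and 79.4 TPM, the latter with 99.9% of its windows shared.

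The median deviation of a list from the 3-library mean differed between libraries in several lists. For 13 hypoxia genes present, this deviation of log2(TPM + 1) was -0.0346, -0.0810 and 0.147 in replicates 1, 2 and 3, against 0.00589, -0.00627 and 0.00191 over all genes present. Ndrg1 had 46.7, 38.7 and 61.6 TPM, Pdk1 26.7, 20.6 and 30.1 TPM and Slc2a1 245, 226 and 277 TPM, each with its highest value in replicate 3. Vegfa, a target of hypoxia on the same list, had 0, 0.138 and 0 TPM. The 6 matrix metalloproteinases present deviated by -0.0496, -0.0944 and 0.159 in the same order. Mmp9, at 321, 295 and 386 TPM, was likewise highest in replicate 3. Lists with fewer genes present did not share a direction. Replicate 3 was also highest for the 4 RUNX and GATA factors present (-0.0326, -0.0690 and 0.120). The same held for the 2 B and plasma cell markers present (-0.0336, -0.170 and 0.204). Other short lists were lowest in replicate 3. The 3 Kupffer cell markers present were at 0.0851, 0.213 and -0.0518, and the 3 microglia markers present at 0.184, 0.101 and -0.0891. With 3 libraries of 1 group there was nothing to test these deviations against.

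**Figure D5:**
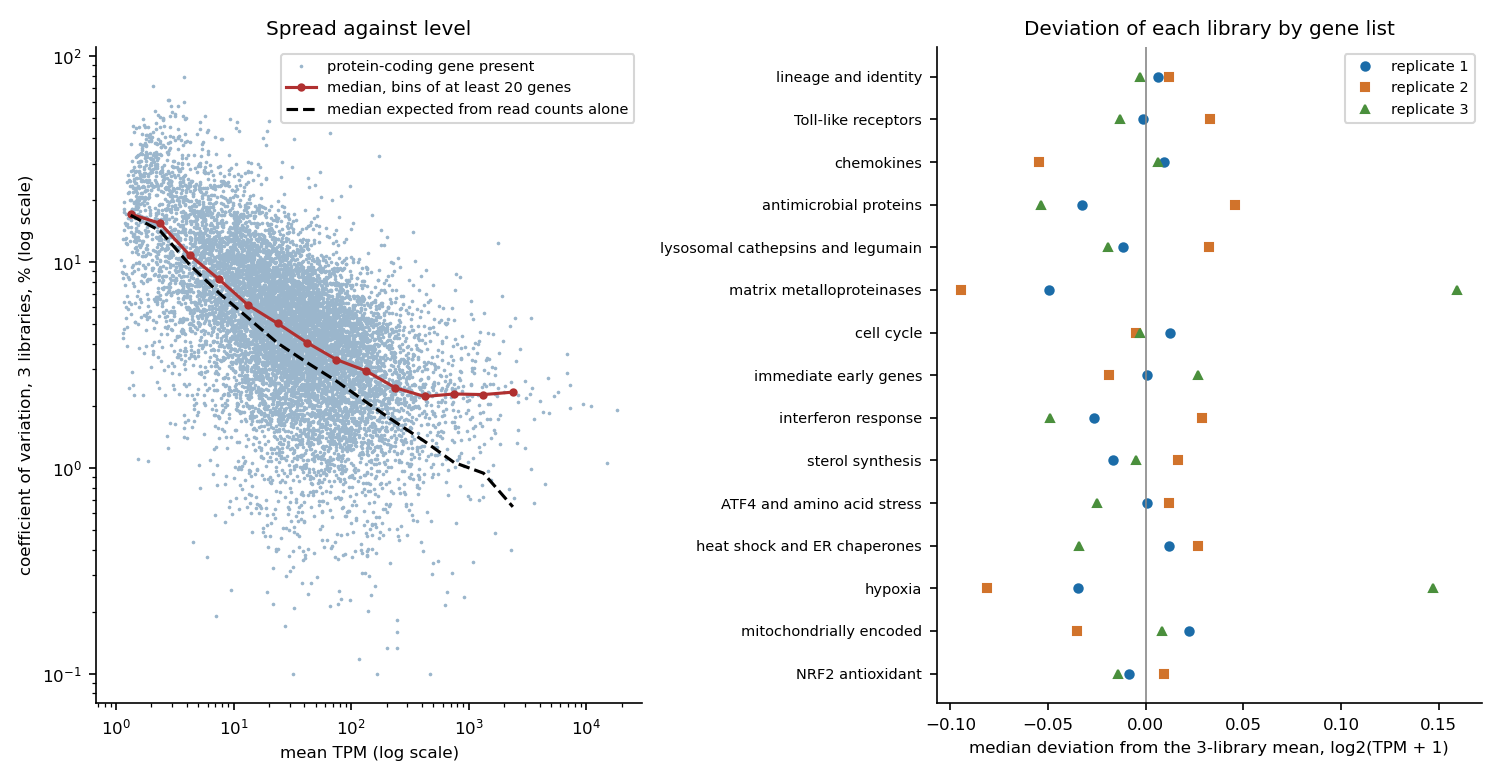
Left, coefficient of variation over the 3 control libraries against mean TPM for the protein-coding genes present (dots), on log axes. Values under 0.1% are drawn at 0.1%. The solid line is the median by level and the dashed line the median counting CV, the inverse square root of mean recovered reads. Over all these genes the medians are 4.82% and 3.83%. Right, the median deviation of each library from the 3-library mean of log2(TPM + 1) by gene list, in which the hypoxia list stands at 0.147 in replicate 3.

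The threshold itself cut through a continuous range. Just inside, the lowest library values of Tgm1 (2.22, 1.00 and 1.94 TPM) and Hspa12b (1.45, 1.61 and 1.00 TPM) were at 1.00 TPM. Just outside lay Afap1 (1.32, 0.99995 and 1.36 TPM), Caprin2 (1.14, 1.20 and 0.999 TPM) and Peli3 (1.62, 1.26 and 0.998 TPM). A further 2648 genes reached 1 TPM in 1 or 2 libraries only, and 3520 were listed at 0 in all 3.

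Promoter composition differed between levels in the same 300-base RefSeq windows, from 250 bases before the start to 50 after. Mean GC content was 61.2% for 4701 protein-coding genes present from 5 to 50 TPM, 59.3% for 201 from 500 TPM, and 53.7% for 812 protein-coding genes listed at 0, against 53.6% over all 27025 promoters. The GC box letters GGGCGG were in 67.3%, 68.2% and 32.5% of those windows, against 35.9% of all. TATAAA was in 5.89%, 14.4% and 16.5%, against 14.2% of all. For the identity genes present, 14 of 21 had an entry in the promoter table, with a mean GC content of 49.5%. GAGGAA was in 64.3% and GGAAGT in 57.1% of these 14, against 28.3% and 24.1% of all promoters, TATAAA in 28.6% against 14.2%, and CACGTG in 0%. Over the protein-coding genes present, the GGAAGT share was 24.1% from 1 to 5 TPM, 30.7% from 5 to 50, 32.7% from 50 to 500 and 38.3% from 500 TPM, and the GAGGAA share 23%, 26.1%, 27.8% and 29.9% in the same order. The ETS motifs can overlap, as they do in Spp1, and their counts are not independent. These shares were not tested.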

How the data were processed

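RNA of J774A.1 cells was selected with poly-T beads and made into libraries with the NEBNext Ultra kit, per the labels' protocols. The submitters' processing notes name HISAT2 2.0.5, StringTie 1.3.3b and the build GRCm38 (mm10); the annotation release is not given in the sources used here. Values are the deposited TPM made by the authors, and only the 3 control columns were used.

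Computed here with Python 3.11.15, numpy 2.4.6 and pandas 2.3.3 were means, SDs, coefficients of variation (CV), ranks and shares. Gene types, exon lengths and 100-base exon windows shared between transcripts came from GENCODE M21, which held 25594 of the 26157 genes (97.8%). TPM multiplied by exon length gave whole reads, within 0.1 of a read, for 98.9%, 98.9% and 99.0% of low values in replicates 1, 2 and 3. Low values were those above 0 and up to 20 reads, and higher values were not checked in this way. From the recovered reads, rounded to whole numbers, came the depth (16453183, 17051972 and 16539381), the counting CV and the limit of 3 reads for a count of 0. Where the annotation differs in length these are approximate. The counting and CV steps were tested on simulated data.

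No test was made. The members and all gene lists were chosen with earlier results of these data known. Named genes were the 30 highest, per list up to 6 or 10 of the highest present and up to 8 that missed the threshold, the highest and next isoform of a family, the most variable from 10 TPM, and the 3 nearest genes on each side of 1 TPM. Chosen after their values were seen, and outside this rule, were Adgre1, Itgam, Tlr1, Tlr3, Tlr5, Tlr6, Ly96, Mb21d1, Pycard, Il4ra, Il13ra1, Ccl5, Cxcl10, Il10, Il1b, Ifnb1, Alox5, Asl, Cybb, Ctsl, Lpl, Abcg1, Abca1, Apoe, Nqo1, Dhcr7, Maf, Fos, Rel, Cdkn1a, Cyp27a1 and those so described in the results. Clone-like names (1680 genes present) were counted and not named. In the gene lists, symbols with more than 1 row (23 in the table) were read at the first row, whatever its level. Some genes that this rule names are not reported here.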

Additional observations from a re-analysis of the deposited data

How the results depend on the processing

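The number of genes present (12375) stayed within 1.5-fold under every alternative tried, from 9756 at 5 TPM to 16420 with any value above 0, and from 12650 to 12792 when 1 library was left out. Rescaling to nuclear protein-coding genes, which leaves all other genes out of the count, gave 10618. Before rescaling, 10530 protein-coding genes were present, the 13 mitochondrially encoded ones among them. Of the list genes, 765 were present, with a range of 667 to 917. The markers of other cell types present numbered 13, against 6 at 5 TPM and 35 with any value above 0, and the macrophage subset markers 18, against 35 with any value above 0. The median CV of 5.52% moved with the set of genes kept, to 6.04% at 0.5 TPM, 4.46% at 5 TPM, 6.18% at a mean of 1 TPM, 7.93% with any value above 0 and 4.86% after rescaling. As an SD of log2(TPM + 1) in natural log units it was 5.16%, and it was 4.50% to 4.83% with 1 library left out, which leaves 2 values per gene. The 10 highest genes took 6.70% of TPM after rescaling, which removes the mitochondrially encoded genes, against 9.30%. Rescaling scaled all genes kept in a library alike, with a median factor of 1.14 over the 749 genes examined. For 661 of these the rise was at least the gene's own SD over the 3 libraries. No paired analysis was possible because no groups were compared. Depth limits genes near 1 TPM, where 4.85 to 5.06 reads per kb decide presence, and 18 of the 350 list genes that missed the threshold overlap or share sequence with other genes.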
